A study of Mus musculus with 12 samples.

Results

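Pyruvate dehydrogenase is the mitochondrial enzyme complex that turns pyruvate into acetyl-CoA, and the 10 genes described here control it, build its first enzyme or bring it its substrate. They are the kinases Pdk1, Pdk2, Pdk3 and Pdk4, the phosphatases Pdp1 and Pdp2, the E1 subunits Pdha1 and Pdhb, and the mitochondrial pyruvate carrier subunits Mpc1 and Mpc2, which make 10 of the 57490 genes in the count table. They were chosen by gene symbol, after Pdk4 had been seen among the largest rises under treatment in these same mice. The values of Pdk4 in the YHY and Model mice therefore chose the set, and Pdk4 is given below as a description, without a test in any comparison.

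The study measured kidney mRNA in male mice of the BKS strain to see which transcripts differ in diabetic kidney disease and under Yiqi Huoxue Yangyin Decoction (YHY), a water extract of a formula of botanical drugs. The Ctrl group held 4 db/m mice, called wild-type in one label and heterozygous db/+ (with 1 copy of the mutant leptin receptor allele Leprdb) in the housing notes, and random blood glucose under 11.1 mmol/L was required of them. The Model and YHY groups held 4 db/db mice each, of the BKS.Cg-Dock7m +/+ Leprdb/JNju stock, which carry the leptin receptor mutation on both alleles in every cell and were admitted at 16.7 mmol/L or more. All kidneys were taken at 13 weeks of age, from mice that had arrived at 8 weeks. After acclimatization, each mouse was gavaged every day over 4 weeks, with 50 µL for each 10 g of its weight. Ctrl and Model mice were given water, and YHY mice the extract, labelled 6.24 g/mL. The study had more than 1 dose group, and the sources used here do not say to which of them these YHY mice belong. The labels call the tissue whole kidney and the series text calls it cortex. Each library held between 24415658 and 33276634 counts, and the share from the mitochondrial genome was 18.4 to 22.7% in Ctrl, 41.2 to 58.9% in Model and 53.8 to 64.6% in YHY mice. Levels are given as counts per 1000000, scaled by the trimmed mean of M-values (CPM), and leaving mitochondrial transcripts out of that scaling changed no call among the 10 genes.

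The complex works as a switch: the kinases add phosphate to the E1 alpha subunit and shut it off, and the phosphatases take the phosphate away and turn it on. Pdk4 is the kinase best known for rising in fasting and in diabetes, when tissues spare glucose and burn fatty acids, and its gene answers to PPAR-alpha, FoxO factors and glucocorticoids. The proximal tubule of the kidney, rich in mitochondria, draws most of its energy from fatty acids and other fuels and also makes glucose from pyruvate precursors.

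All 10 genes passed the filter on low counts, and 3 comparisons were read for them, which share mice: Model against Ctrl, YHY against Model, and YHY against Ctrl. A gene was called when its adjusted P from edgeR was under 0.05. Pdk4 is left out of the counts. In Model against Ctrl 7 of the 9 other genes were called, 2 higher and 5 lower, where 38% of the 17431 genes tested were called, 19.6% higher and 18.5% lower. There 6 of the 9 had groups that did not overlap, beside 40.2% of all genes, 1 higher (19.9% of all genes) and 5 lower (20.3%). In YHY against Model 2 of the 9 genes other than Pdk4 were called, both lower, beside 13.3% of all genes tested, 5.63% called higher and 7.62% lower. The same 2 were the members without overlap, beside 16.1% of all genes, 6.83% higher and 9.28% lower, and nothing is read from these counts because Pdk4 was chosen in this comparison. Between YHY and Ctrl mice 7 of the 9 were called, 1 higher and 6 lower, beside 50.3% of all genes, 26.1% higher and 24.2% lower. The same 7 did not overlap, beside 44.6% of all genes, 21.9% higher and 22.7% lower. With library size alone as the scaling the members called were none higher and 6 lower, none higher and 1 lower, and none higher and 6 lower in the 3 comparisons. The count of 2 called in YHY against Model was 0 without Model 3 and 1 without Ctrl 1, Ctrl 3, Model 4, YHY 1 or YHY 2. The median log2 fold change of the 9 members was -0.71, -0.17 and -1.40 in the 3 comparisons, and that of all genes tested was 0.04, 0.02 and 0.10. For the 9 members it moved to -1.14 in Model against Ctrl with library size alone (all genes -0.39). In YHY against Model it moved to -0.053 without Model 1 and -0.042 with 9 mice. Because bulk tissue was measured, fewer cells that carry a transcript and less of it per cell cannot be told apart.

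**Figure D1:**
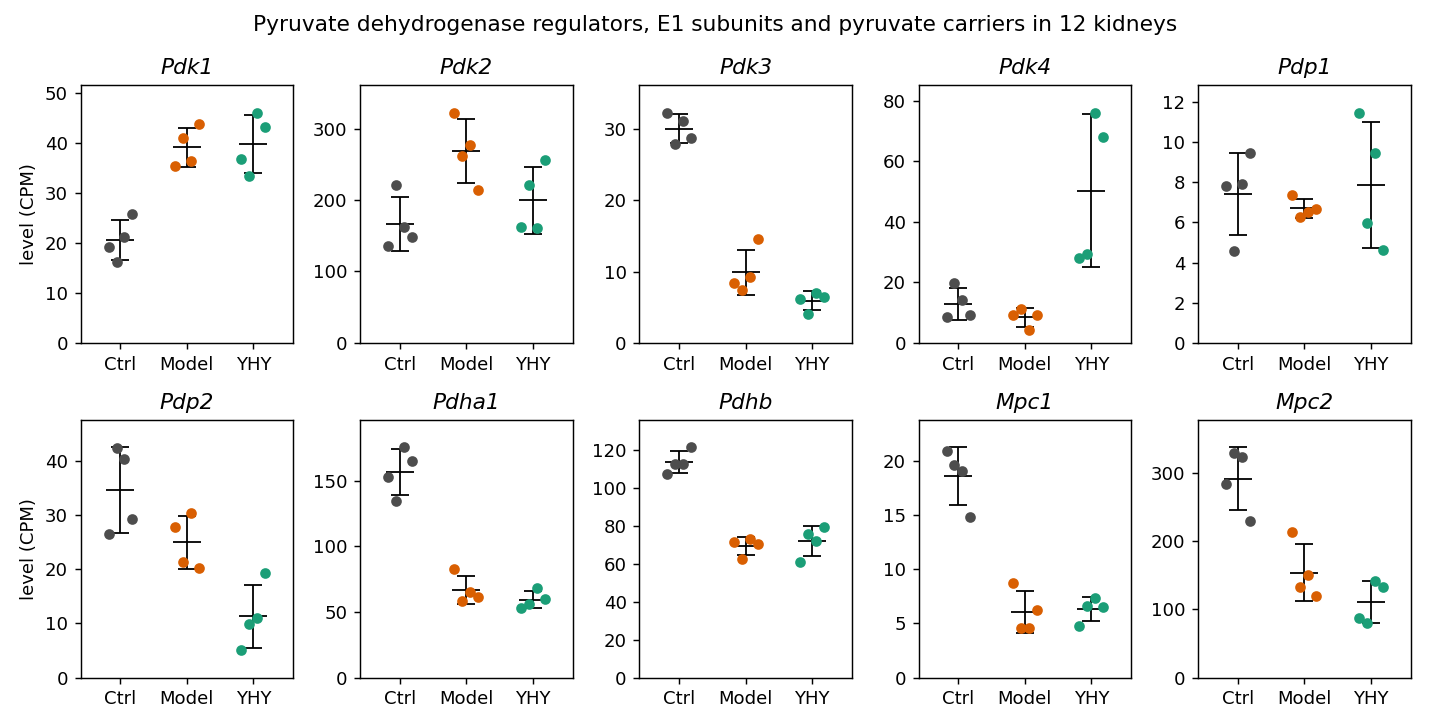
Each panel shows 1 gene, with its level in CPM on a linear axis that starts at 0 and the 3 groups along the horizontal axis. Points are single mice (4 per group), and the bars give the mean and SD; the 4 YHY points of Pdk4 lie between 28.0 and 76.1 CPM, above all Ctrl and Model points, while those of Pdk3 and Pdp2 lie below all Model points.

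Pdk4 (ENSMUSG00000019577) lies on chromosome 6, minus strand, at chr6:5483351-5496309 as deposited, on the build the submitters name as GRCm39. Its promoter is printed with those of Pdk3 and Pdp2, the 2 genes called lower in YHY against Model, while Pdk4 stood higher and they stood lower in YHY than in Model mice. Each run holds the 250 bases before and the 50 after the start of transcription, 5′ to 3′ on the gene's strand, from RefSeq on GRCm38.p6, and capitals mark the letters CCAAT or, on the other strand, ATTGG. The windows are chr6:5496229-5496528 on the minus strand, chrX:93832101-93832400 on the minus strand and chr8:104591222-104591521 on the plus strand.
Pdk4: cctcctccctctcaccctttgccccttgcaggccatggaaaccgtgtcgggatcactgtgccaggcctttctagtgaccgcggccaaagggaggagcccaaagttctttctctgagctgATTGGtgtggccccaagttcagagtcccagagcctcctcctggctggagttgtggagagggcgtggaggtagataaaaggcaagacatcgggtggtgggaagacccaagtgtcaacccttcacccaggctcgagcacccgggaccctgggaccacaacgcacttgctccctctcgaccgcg
Pdk3: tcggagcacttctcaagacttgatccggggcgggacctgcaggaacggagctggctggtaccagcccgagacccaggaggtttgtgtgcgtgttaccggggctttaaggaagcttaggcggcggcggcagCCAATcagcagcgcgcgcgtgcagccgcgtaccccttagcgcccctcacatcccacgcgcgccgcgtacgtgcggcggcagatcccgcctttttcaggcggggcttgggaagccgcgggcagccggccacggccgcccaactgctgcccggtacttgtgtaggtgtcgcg
Pdp2: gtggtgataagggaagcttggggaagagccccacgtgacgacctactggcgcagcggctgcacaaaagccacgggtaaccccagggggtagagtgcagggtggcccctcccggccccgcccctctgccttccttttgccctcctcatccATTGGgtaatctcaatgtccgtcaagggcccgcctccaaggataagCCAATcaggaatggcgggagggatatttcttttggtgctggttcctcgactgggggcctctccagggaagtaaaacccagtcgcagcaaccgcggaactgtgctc

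The RefSeq table held a window for 9 of the 10 genes, 12 windows in all, with none for Pdp1. On either strand CCAAT was found once in the Pdk4 window, at position -131 from the start, once in that of Pdk3 and at 2 places in that of Pdp2, and also in windows of Pdk2, Pdhb, Mpc1 and Mpc2, and 37.4% of the 32851 windows of all genes hold it. The GC box GGGCGGG (25.6% of all windows) was found in windows of Pdk3, Pdp2, Pdhb, Mpc1 and Mpc2 and not in that of Pdk4. The E-box CACGTG (7.15% of all windows) was found in the windows of Pdp2 and Pdk2. The Pdk4 window held none of AGGTCA, the nuclear receptor half-site (16.3% of all windows), TGTTTAC, a FoxO core (3.65%), or AGAACA, a glucocorticoid receptor half-site (19%), which says only that these letters are not in these 300 bases. Among the other members, AGGTCA was found in a window of Mpc1, AGAACA in a window of Pdk1, and TGTTTAC in none.

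In Ctrl mice Pdk4 stood at 8.42, 19.9, 14.2 and 9.33 CPM, and in Model mice at 9.07, 11.2, 4.11 and 9.31 CPM. In YHY mice it stood at 28.0, 29.2, 76.1 and 68.0 CPM. The Ctrl and Model ranges overlap, and every YHY mouse lies above all 8 others; the YHY mice are widely spread, with YHY 3 and YHY 4 more than 2 times as high as YHY 1 and YHY 2. As a description, the log2 fold change was 2.58 (SE 0.38) in YHY against Model, 5.98-fold, and 1.96 (SE 0.37) in YHY against Ctrl, 3.89-fold. Both comparisons share the YHY mice. Between Model and Ctrl mice it was -0.62 (SE 0.37) for Pdk4, and -1.01 with library size alone as the scaling, again without a test because the Model values were part of the choice. Under that scaling the median of all genes tested moved to -0.39, and of the genes called in Model against Ctrl 21.4% were higher, against 51.5% with the main scaling.

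Pdk2, the most widely expressed of the kinases, was the leading kinase of the kidney in every mouse. Compared per deposited gene length, it made up 70.95 to 78.9% of the summed level of the 4 kinases in the Ctrl mice, 82.9 to 90.7% in the Model mice and 62.6 to 83.1% in the YHY mice. Its level was 135, 220, 162 and 148 CPM in Ctrl mice, 322, 261, 277 and 214 CPM in Model mice, and 162, 221, 161 and 256 CPM in YHY mice. All 3 groups overlap, since Ctrl 2 lies above Model 4. Pdk2 was called higher in Model against Ctrl by edgeR (log2 fold change 0.69, SE 0.20, adjusted P = 0.0133), while the exact permutation test gave P = 0.0571 (two-sided, n = 4 a group). The call was lost without Ctrl 1 (0.55, adjusted P = 0.0657 by edgeR), without Ctrl 4 (0.59, adjusted P = 0.0509) and with library size alone, which gave 0.29 (adjusted P = 0.283). In YHY against Model its value was -0.43 (SE 0.20, adjusted P = 0.174 by edgeR), and in YHY against Ctrl 0.26 (adjusted P = 0.289), a sign that turned with library size alone (-0.17, not called).

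Pdk1, a kinase known as a target of hypoxia-inducible factor, was the other member that was higher in Model mice. It stood at 19.2, 16.1, 21.1 and 25.9 CPM among Ctrl mice, 35.4, 40.9, 36.4 and 43.8 CPM among Model mice, and 36.7, 33.4, 46.0 and 43.1 CPM in YHY mice. Every db/db mouse, treated or not, lies above every Ctrl mouse, and the Model and YHY mice overlap. The log2 fold change was 0.93 (SE 0.16) in Model against Ctrl, with an adjusted P of 0.000376 by edgeR and an exact permutation P of 0.0286, the smallest that 4 against 4 can give. It was 0.95 (SE 0.16, adjusted P = 0.000153 by edgeR) in YHY against Ctrl and 0.03 (SE 0.16, adjusted P = 0.943) in YHY against Model. With library size alone Pdk1 kept its direction but was called in neither comparison with Ctrl (0.47 and 0.52, adjusted P = 0.105 and 0.068 by edgeR).

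Pdk3, a kinase found mainly in testis, kidney and brain and encoded on the X chromosome, moved the other way. Its level was 32.3, 27.9, 31.2 and 28.8 CPM in Ctrl mice and 8.36, 7.38, 9.26 and 14.6 CPM in Model mice, then 6.14, 4.03, 7.07 and 6.50 CPM in YHY mice. The 3 groups are stacked without overlap, with the closest gap between Model 2 and YHY 3. The fall in Model against Ctrl was -1.60 (SE 0.21, adjusted P = 4.65e-05 by edgeR), 0.329 times the Ctrl level, and all 22 alternatives kept it. The further fall in YHY against Model, -0.73 (SE 0.21, adjusted P = 0.0343 by edgeR, exact permutation P = 0.0286), was less firm. It was not called without Ctrl 1 (adjusted P = 0.0515), Ctrl 3 (0.0521), Model 3 (0.0681), Model 4 (0.118), YHY 1 (0.0582) or YHY 2 (0.0827), nor with library size alone (0.126), with the 8 mice of the comparison alone (0.128) or with 9 mice (0.0591), all by edgeR. The log2 fold change itself was -0.49 without Model 4 and -0.59 without YHY 2, and from -0.69 to -0.83 in the other 7 of these cases. The value between YHY and Ctrl mice was -2.33 (SE 0.22, adjusted P = 9.37e-07 by edgeR).

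The kinase that stood second to Pdk2 was not the same in all groups, as a description without a test. Per deposited gene length, Pdk3 held 17.0% ± 3.55 (SD, n = 4) of the kinase level in Ctrl, 4.16% ± 1.90 in Model and 2.81% ± 0.834 in YHY mice. Pdk4 held 5.08% ± 1.204, 2.54% ± 1.01 and 16.6% ± 7.52, and in YHY mice its share was 12.0, 9.91, 26.7 and 17.9%. Pdk1 held 3.87%, 5.34% and 6.15%. The second kinase was Pdk3 in all Ctrl mice and Pdk4 in all YHY mice, and in Model mice it was Pdk1 in Model 1, Model 2 and Model 3 (4.05, 5.596 and 4.82%) and Pdk3 in Model 4 (6.96% beside 6.89% for Pdk1), with Pdk4 below Pdk1 in all 4, at 1.204 to 3.39%. Pdk4 per Pdk2 had a mean of 0.0683 ± 0.0137 over Ctrl, 0.0291 ± 0.0123 over Model and 0.235 ± 0.137 over YHY mice, so Pdk2 transcripts outnumbered those of Pdk4 in every group. These shares need no scaling between mice, but the 4 percentages of a mouse sum to 100 and are not independent.

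**Figure D2:**
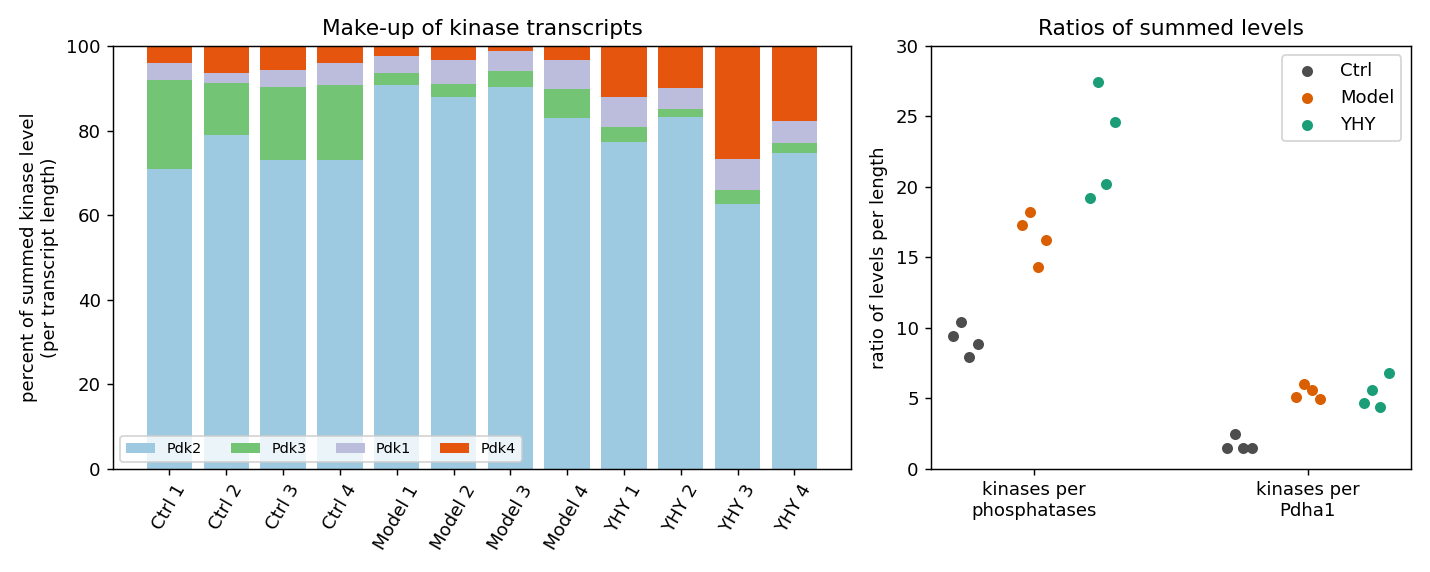
On the left, each bar is 1 mouse and its coloured segments are the percent of the summed kinase level held by Pdk2, Pdk3, Pdk1 and Pdk4. Levels are per deposited gene length, which the axis labels as transcript length. On the right, each point is 1 mouse and the axis gives the ratio of summed kinase levels to summed phosphatase levels and to Pdha1; the Pdk4 segment is widest in YHY 3, at 26.7%, and the kinases per phosphatases lie between 7.96 and 10.45 in Ctrl, 14.3 and 18.2 in Model and 19.2 and 27.4 in YHY mice, with Pdk4 included; without it the Model and YHY ranges overlap.

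Pdp2 (ENSMUSG00000048371), the phosphatase known to answer to insulin in liver and fat, had the higher mean of the phosphatases per deposited gene length in all 3 groups, though in YHY mice it overlapped Pdp1. It stood at 26.5, 42.3, 40.2 and 29.1 CPM among Ctrl mice, 27.7, 21.4, 30.3 and 20.3 CPM among Model mice, and 5.19, 9.89, 10.9 and 19.2 CPM in YHY mice. Ctrl and Model mice overlap, and all YHY mice lie below both, YHY 4 only narrowly. The log2 fold change was -0.47 (SE 0.29, adjusted P = 0.208 by edgeR) in Model against Ctrl and -1.14 (SE 0.29, adjusted P = 0.0194) in YHY against Model, where the exact permutation P was 0.0286. The second call was lost without Model 3 (-1.03, adjusted P = 0.0658 by edgeR), and the first value passed the threshold when Model and Ctrl mice alone entered the fit (-0.49, adjusted P = 0.0369) and with library size alone (-0.88, adjusted P = 0.0181). The value between YHY and Ctrl mice was -1.61 (SE 0.29, adjusted P = 0.000307 by edgeR).

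Pdp1, the calcium-stimulated phosphatase of muscle and brain, was the lowest member per deposited gene length in Ctrl, Model and YHY means alike. It ranged from 4.58 to 9.46 CPM among Ctrl mice, 6.28 to 7.37 CPM among Model mice and 4.65 to 11.5 CPM in YHY mice, 108 to 416 counts a library, and the 3 groups overlap. No comparison called it (log2 fold changes -0.15, 0.23 and 0.08, SE about 0.28, 0.28 and 0.27), and the last 2 turned their sign in some alternatives, YHY against Ctrl to -0.31 with library size alone, which also gave -0.60 in Model against Ctrl. Pdp2 per Pdk4, both per length, was 1.73 ± 0.295 (SD, n = 4) for Ctrl mice, 2.24 ± 1.57 in Model and 0.147 ± 0.0549 in YHY mice. Summed over both phosphatases and all 4 kinases, kinase transcripts per phosphatase transcript were 9.18 ± 1.04 in Ctrl, 16.5 ± 1.67 in Model and 22.9 ± 3.86 in YHY mice. Without Pdk4, a count made after seeing the data, the ratio was 7.505 to 9.78 in Ctrl, 14.2 to 17.6 in Model and 14.8 to 24.7 in YHY mice, so the Model and YHY ranges overlap. No test was made.

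Pdha1, the E1 alpha subunit that carries the phosphorylated serines, fell in db/db kidneys. Its level was 153, 134, 175 and 165 CPM in Ctrl mice, 82.6, 58.4, 65.3 and 61.7 CPM in Model mice, and 53.4, 56.3, 68.6 and 59.5 CPM in YHY mice. Every Ctrl mouse lies above every db/db mouse, and Model and YHY mice overlap. The log2 fold change was -1.23 (SE 0.15, adjusted P = 2.82e-05 by edgeR) in Model against Ctrl, -0.17 (SE 0.15, adjusted P = 0.489) in YHY against Model and -1.40 (SE 0.15, adjusted P = 3.26e-06) in YHY against Ctrl. With 1 mouse left out, Pdha1 in YHY against Model ran from -0.25 to -0.053. The gene Map3k15 overlaps it on the other strand and held up to 19.4% as many counts, and since the strand setting of the counting is not given in the sources used here, some reads could belong to either.

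Pdhb, the E1 beta subunit, also fell. It ranged from 107 to 121 CPM among Ctrl mice, 62.5 to 72.9 CPM among Model mice and 60.8 to 79.1 CPM in YHY mice, so that Ctrl again lay apart while Model and YHY mice overlapped. Its log2 fold change was -0.71 (SE 0.13, adjusted P = 0.000537 by edgeR) in Model against Ctrl, 0.05 (SE 0.13, adjusted P = 0.845) in YHY against Model and -0.66 (SE 0.13, adjusted P = 0.000533) in YHY against Ctrl. With library size alone the values against Ctrl were -1.14 and -1.10, both called. Whether Pdha1 and Pdhb differed in the size of their fall was not tested. Kinase transcripts per Pdha1 transcript, per length, were 1.72 ± 0.491 (SD, n = 4) in Ctrl, 5.40 ± 0.482 in Model and 5.36 ± 1.09 in YHY mice, and no db/db mouse fell into the Ctrl range of 1.45 to 2.45. Pdk4, whose values chose the set, is part of that kinase sum, at a mean of 2.54% of it in Model and 16.6% in YHY mice. The ratio to Pdha1 was not taken without Pdk4, so nothing is read from the closeness of the Model and YHY means.

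Mpc2 and Mpc1 form the carrier that takes pyruvate across the inner mitochondrial membrane. Mpc2 ranged from 229 to 329 CPM among Ctrl mice, 120 to 214 CPM among Model mice and 80.1 to 142 CPM in YHY mice; Ctrl lay above both other groups, which overlapped. The log2 fold changes were -0.92 (SE 0.22, adjusted P = 0.00424 by edgeR) in Model against Ctrl, -0.48 (SE 0.22, adjusted P = 0.168) in YHY against Model and -1.40 (SE 0.23, adjusted P = 0.000103) in YHY against Ctrl. The value in YHY against Model ran from -0.62 to -0.27 with 1 mouse left out, and was not called. By the limits used in the study, a fold change over 1.2 with an unadjusted P under 0.05, Mpc2 and Pdk2 joined Pdk3 and Pdp2 as lower in YHY against Model, 4 of 9, beside 28.6% of all genes tested, 13.9% higher and 14.7% lower. Those limits gave 7 of 9 in Model against Ctrl, 2 higher and 5 lower (46.9% of all genes, 24.5% higher and 22.4% lower), and 7 of 9 in YHY against Ctrl, 1 higher and 6 lower (56%, 29.4% and 26.6%).

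Mpc1 stood at 20.9, 19.6, 19.1 and 14.8 CPM among Ctrl mice, 8.72, 4.57, 4.61 and 6.24 CPM among Model mice, and 4.804, 6.63, 7.36 and 6.47 CPM in YHY mice. Its fall was -1.62 (SE 0.22, adjusted P = 6.54e-05 by edgeR) in Model against Ctrl and -1.56 (SE 0.22, adjusted P = 3.42e-05) in YHY against Ctrl, with 0.06 (SE 0.22, adjusted P = 0.9) in YHY against Model. The counts of Mpc1 are uncertain. A processed pseudogene of 330 bases, Mpc1-ps, held up to 451% as many counts as Mpc1 in a library and more than Mpc1 in all 12 mice, so reads could have been split between them, and an antisense transcript, 4930506C21Rik, held up to 29.5% as many. Added together, Mpc1 and Mpc1-ps gave 88.8 ± 7.03 CPM (SD, n = 4) in Ctrl, 25.98 ± 3.52 CPM among Model mice and 23.98 ± 6.18 CPM in YHY mice, an alternative chosen after seeing the data. Fitted as 1 gene, the sum had log2 fold changes of -1.77 and -1.89 in the comparisons with Ctrl (adjusted P = 4.8e-06 and 7.34e-07 by edgeR), and the value between YHY and Model mice turned its sign to -0.11, not called.

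**Figure D3:**
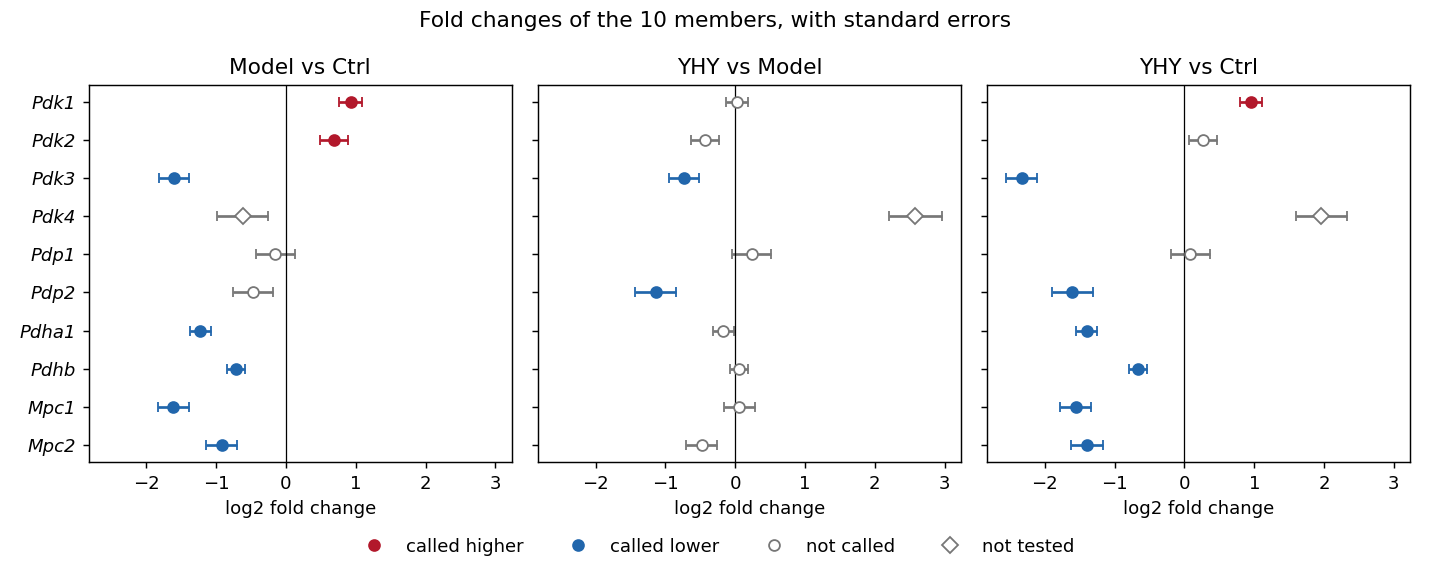
Log2 fold changes of the 10 genes (points) with their standard errors (bars) in the 3 comparisons, on 1 shared axis with 0 marked by a line. Filled points were called by edgeR, open circles were not, and open diamonds are the untested values of Pdk4, at -0.62, 2.58 and 1.96; with library size alone as the scaling, Pdk1 and Pdk2 were not called in Model against Ctrl, and Pdp2 was called lower.

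Ordered by level per deposited gene length, Pdk2 led in all 3 groups, at 52.6, 85.0 and 63.2 CPM per kilobase in Ctrl, Model and YHY mice. Its lead in Ctrl mice depends on these lengths, since by CPM Mpc2 (291) stood above Pdk2 (167) there. In Ctrl mice Pdha1 (42.0), Mpc2 (39.7) and Pdhb (29.4) followed, then Pdk3 (11.7), Mpc1 (8.93), Pdp2 (6.07), Pdk4 (3.69), Pdk1 (2.65) and Pdp1 (1.65). In that order, Pdhb and Pdk3 differed beyond their spread, as did Pdk3 and Mpc1, and all other neighbours overlapped. The place of Mpc1 is uncertain, as its counts are: in Ctrl mice it had 18.6 CPM alone and 88.8 CPM with Mpc1-ps added. The order was not taken with that sum. Pdk4 was the eighth of the 10 in Ctrl, the ninth in Model and the fifth in YHY mice, where its 14.3 overlapped the 15.1 of Mpc2. These levels rest on the deposited gene lengths.

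Across the 12 mice, the genes whose log2(CPM + 1) followed that of Pdk4 most closely were Mier1 (Pearson r = 0.92), Ttf1 (0.911), Zrsr1 (0.904), Pign (0.897) and Pkd1 (0.89), of 12846 genes compared. The points share groups, so group differences enter these values; after subtraction of the group means they were 0.836, 0.49, 0.758, 0.583 and 0.58. Of the other 9 members, r with Pdk4 ran from -0.546 for Pdp2 to 0.292 for Pdk1, and with group means removed from -0.388 for Pdp1 to 0.595 for Mpc2. The value of Pdp2 turned from -0.546 to 0.497 on that subtraction, and all these correlations are descriptions over n = 12 mice.

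The rest of the complex was read through 9 genes. Dlat (the E2 subunit), Dld (E3) and Pdhx (the E3-binding protein) were called lower in Model against Ctrl, at -0.96 (SE 0.14), -0.91 (SE 0.16) and -0.60 (SE 0.15), with adjusted P of 9.65e-05, 0.000347 and 0.00524 by edgeR. Pdha1 and Pdhb, given above, were also lower in that comparison. Ppm1k, the phosphatase of the branched-chain ketoacid dehydrogenase, was higher (0.81, SE 0.17, adjusted P = 0.00188 by edgeR), and the other 5 were not called, among them Pdpr, which restrains the phosphatase, and Lias, Lipt1 and Lipt2, which make and attach lipoic acid. Of the 9, 1 was thus higher and 3 lower there (19.6% and 18.5% of all genes tested). Between YHY and Model mice 1 of the 9 was called, lower (7.62% of all genes), Bckdk, the kinase that opposes Ppm1k (-0.71, SE 0.16, adjusted P = 0.0108 by edgeR). Against Ctrl, YHY mice had lower Dlat, Dld, Pdhx and Bckdk (24.2% of all genes) and higher Ppm1k (26.1%).

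Downstream, 14 of 17 citrate cycle genes were lower and none higher in Model against Ctrl (18.5% and 19.6% of all genes tested), with a median log2 fold change of -0.81 beside 0.04 for all genes tested (-1.22 beside -0.39 with library size alone). Suclg1 (-1.83), Sdha (-1.32) and Sucla2 (-1.27) had the smallest P. YHY against Model had 3 of 17 lower (7.62% of all genes), Suclg2, Sdhd and Sucla2, with 5 of 17 by DESeq2 and 1 of 17 without Model 3, with library size alone or with the 8 mice of the comparison alone. YHY against Ctrl had 16 of 17 lower (24.2% of all genes; median -1.195 beside 0.10). There Sucla2 (-1.81), Sdhd (-1.75) and Suclg1 (-2.19) came first by P.

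Of 14 genes of other pyruvate routes, 3 were higher and 3 lower in Model against Ctrl (19.6% and 18.5% of all genes tested), 1 higher and 3 lower in YHY against Model (5.63% and 7.62%), and 2 higher and 5 lower in YHY against Ctrl (26.1% and 24.2%). Me1, the cytosolic malic enzyme that yields pyruvate, and Ldha, a lactate dehydrogenase subunit, were lower in all 3 comparisons, like Pdk3. Me1 had log2 fold changes of -2.17, -1.56 and -3.73 and Ldha of -1.29, -0.92 and -2.21 in that order. The others, named after their values were seen, were Ldhb (lower in both comparisons with Ctrl), Gpt2 (lower in both with YHY), Pcx (lower in YHY against Ctrl), Pck1 and Gpt (higher in Model against Ctrl), and Pck2 (higher in YHY against Ctrl). By the rule, Gpt, which makes pyruvate from alanine, was named as higher in YHY against Model (0.77, SE 0.15, adjusted P = 0.00511 by edgeR) and in YHY against Ctrl (1.37). Pck2 was named by it as higher in Model against Ctrl (0.93, SE 0.15).

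Of 13 genes for regulators of the Pdk genes, 3 were higher and 4 lower in Model against Ctrl (19.6% and 18.5% of all genes tested; 4 called without Model 2), none higher and 4 lower in YHY against Model (5.63% and 7.62%), and 3 higher and 5 lower in YHY against Ctrl (26.1% and 24.2%). Foxo3 and Ppargc1b (1.72) were higher and Nr3c1, the glucocorticoid receptor, was lower (-0.71) in Model against Ctrl. Esrrg (-0.70), Esrra (-0.53), Rxra (-0.62) and, outside the naming rule, Foxo3 (-0.47) were lower in YHY against Model, and the count of 4 was 1 with library size alone and 0 with the 8 mice of the comparison alone. It dropped to 1 without Model 3 or YHY 1 and to 2 without Model 4 or YHY 3 and with 9 mice. Against Ctrl, Rxra (-1.09) and Nr3c1 (-1.05) were lower and Ppargc1b (1.61) higher in YHY mice.

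Target genes of these regulators were counted next to Pdk4, itself left out of each list. Of 19 PPAR-alpha targets tested, 3 were higher and 8 lower in Model against Ctrl (19.6% and 18.5% of all genes tested), where the fatty acid oxidation genes Acadm (-1.70), Ehhadh (-2.45) and Hadhb (-1.15) fell. YHY against Model had 2 of 19 higher (5.63% of all genes), Plin2 (0.74, adjusted P = 0.0443 by edgeR) and Angptl4 (0.94, adjusted P = 0.0496). Angptl4, a lipoprotein lipase inhibitor, stood at 74.3 to 87.3 CPM among Model mice and 116 to 201 CPM in YHY mice, without overlap. Plin2 overlapped (23.9 to 34.2 and 32.8 to 75.2 CPM). This count of 2 was 0 without Ctrl 3, any 1 of the Model mice, YHY 2 or YHY 4 and with 9 mice, 1 without Ctrl 1, Ctrl 2 or Ctrl 4, with the replicate block, with library size alone and with the 8 mice of the comparison alone, and 4 without YHY 1. YHY against Ctrl had 4 higher and 5 lower (26.1% and 24.2% of all genes), with Angptl4 (2.37) and Acot2 (1.37) among the higher and Acadm (-1.92) among the lower, and 3 higher and 11 lower with library size alone and with 9 mice.

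Of 11 FoxO and insulin-repressed targets tested, 2 were higher (Fbxo32 1.15, Txnip 0.70) and 1 lower (Bcl6 -1.41) in Model against Ctrl, beside 19.6% and 18.5% of all genes tested. YHY against Model had 1 higher (5.63% of all genes), Sesn1 (0.79, adjusted P = 0.0239 by edgeR), and none without Model 3, Model 4 or YHY 2. YHY against Ctrl had 3 higher (26.1% of all genes), Txnip, Sesn1 and Fbxo32, with 5 higher and 1 lower without Ctrl 2, 4 higher and 1 lower without YHY 1, with DESeq2 and with 9 mice, 3 higher and 2 lower with no filter, and 3 higher and 3 lower with library size alone. Of 11 glucocorticoid targets, 8 were higher in Model against Ctrl (4 with library size alone; 19.6% of all genes), 2 in YHY against Model (Lcn2 2.06, Sgk1 1.06; 5.63%) and 10 in YHY against Ctrl (26.1%), and none was lower. Zbtb16 (2.98), Per1 (2.59) and Mt1 (1.59) had the smallest P in Model against Ctrl. In YHY against Ctrl these were Mt1 (2.04), Zbtb16 (4.03) and Per1 (2.93). Per1 is also a clock gene, and it was counted in this list and not among the clock genes read below. The count of 2 in YHY against Model was 0 with library size alone and without any 1 of the Model mice or YHY 1, 1 without Ctrl 1, Ctrl 3, YHY 2 or YHY 3 and with 9 mice, and 4 with DESeq2, with no filter and with the 8 mice of the comparison alone.

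**Figure D4:**
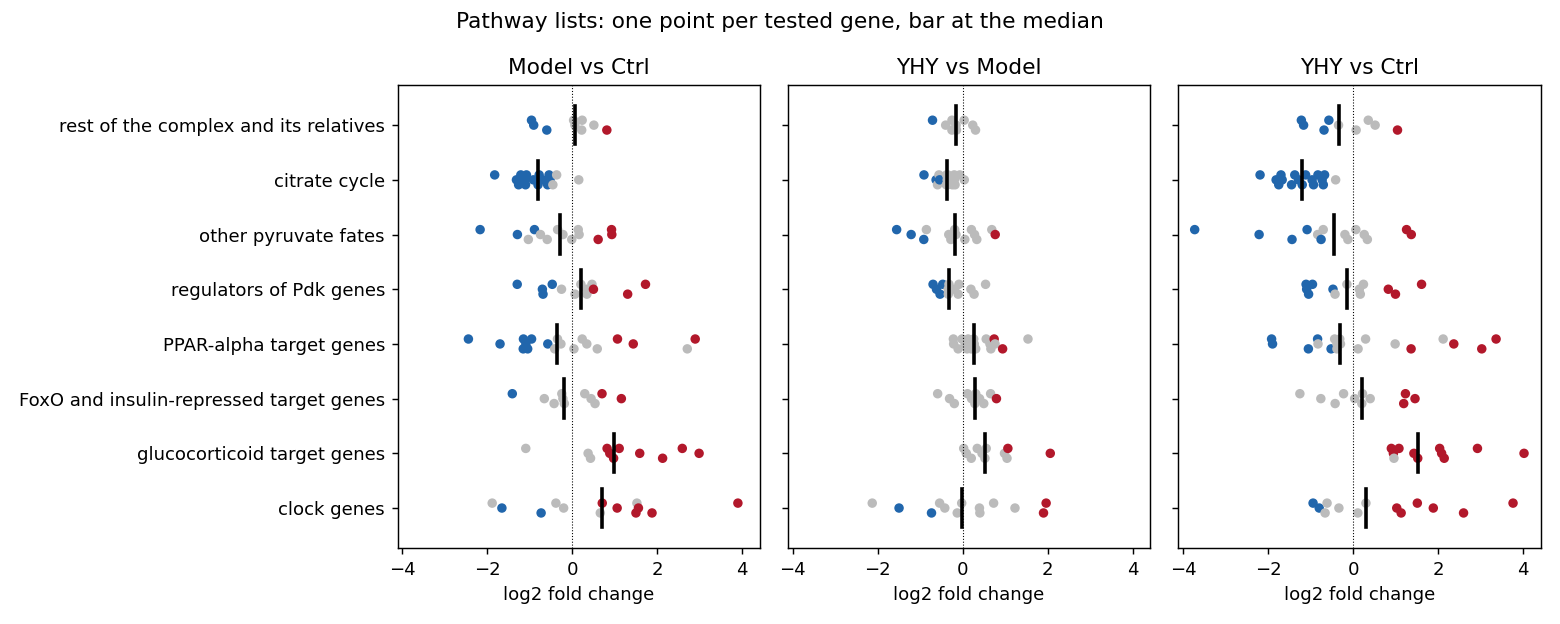
Each point is 1 tested gene of a list, with its log2 fold change along the axis and the 3 comparisons side by side. Red points were called higher and blue points lower by edgeR, grey points were not called, and a black bar marks the list's median, -0.81 for the citrate cycle and 0.97 for glucocorticoid targets in Model against Ctrl; with library size alone these medians were -1.22 and 0.54, and 4 instead of 8 glucocorticoid targets were higher there.

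The kidney label was checked against cell markers. The summed level of 7 proximal tubule markers, the cells that hold most of the renal mitochondria, was 3523 to 5758 CPM among Ctrl mice, 2650 to 3513 CPM among Model mice and 1345 to 3861 CPM in YHY mice, with Slc34a1 the most abundant, and 3 of 7 were lower in Model against Ctrl (18.5% of all genes tested), 1 of 7 in YHY against Model (7.62%) and 4 of 7 in YHY against Ctrl (24.2%). The 1 called higher there (26.1%), Slc5a12, stood at 223 CPM in YHY 4 and at 9.11 to 24.7 CPM in the other YHY mice. Ctrl mice had 3.69 to 25.4 CPM of Slc5a12. Slc34a1 itself overlapped between the groups, at 1418 to 2790 CPM in Ctrl, 1785 to 2384 CPM in Model and 965 to 2722 CPM in YHY mice. The markers of this list thus did not all move alike. The part of cell make-up in the values of the 10 genes was not tested. Pdk4 is also a gene of fat and muscle, and the markers of those tissues were low: the summed level of 6 adipocyte markers was at most 2.57 CPM, of 3 brown adipocyte markers at most 0.61 CPM and of 7 skeletal muscle markers at most 3.62 CPM in any mouse, and up to 5 of the adipocyte and 6 of the skeletal muscle markers were at 0 in a mouse. The summed level of 4 cardiac markers, led by Myl7, was 2.98 to 5.65 CPM among Ctrl mice, 15.1 to 24.1 CPM among Model mice and 6.41 to 17.2 CPM in YHY mice (1 of 3 tested called higher in both comparisons with Ctrl, beside 19.6% and 26.1% of all genes), and its part in the values of Pdk4 was not tested.

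Clock genes were read because Pdk4 is known to vary over the day and the hour of collection is not given in the sources used here. Of 13 tested, 6 were higher and 2 lower in Model against Ctrl (19.6% and 18.5% of all genes tested; 5 called without Ctrl 1), led by Per2 (1.87), Cry2 (1.55) and Ciart (3.90). YHY against Model had 2 higher and 2 lower (5.63% and 7.62% of all genes; 2 called in all without Model 3), with Nr1d1 at -1.50, Cry1 at 1.90 and Hlf at -0.73. YHY against Ctrl had 6 higher and 2 lower (26.1% and 24.2%), with Per2 at 2.603, Hlf at -0.94 and Ciart at 3.77. The YHY mice (0.893 to 23.9 CPM) overlap the Ctrl mice (0.364 to 0.905 CPM) in Ciart. Nr1d1 was 24.5 to 40.9 CPM among Model mice and 6.19 to 14.9 CPM in YHY mice. The part of collection time in the values of Pdk4 was not tested.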

How the data were processed

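Kidney mRNA of 12 mice (4 Ctrl, 4 Model, 4 YHY) was analysed from the table of raw counts per gene that the authors deposited. The submitters' processing notes name FastQC 0.11.9, Trimmomatic 0.39, HISAT2 2.2.1, SAMtools 1.12 and featureCounts 2.0.1 with GRCm39; whether read pairs or single reads were counted, and on which strand, is not given in the sources used here, and 65.6 to 72.6% of counts from 1 to 10 were even numbers. Deposited counts ranged from 24415658 to 33276634 a mouse. Shares of counts carry 95% Wilson intervals (18.55 to 18.57% for the mitochondrial share of Ctrl 1), which cover counting error only. No mouse was left out, and replicate pairs differed by more than sampling noise (chi-square per degree of freedom 17.3 to 139 over 18 pairs).

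Differences were fitted by edgeR 4.0.16, run under R 4.3.3 (filterByExpr, TMM, glmQLFit and glmQLFTest, all 12 mice in 1 fit, group as the only term), with Benjamini-Hochberg adjustment over the 17431 genes kept. CPM are TMM-scaled, and levels between genes are CPM per kilobase of deposited gene length. Exact permutation tests were two-sided. The members and all lists were chosen with earlier results of these data known, so lists are described by counts and medians. A test of Pdk4 in Model against Ctrl had been planned and was run, but is not given, since its Model values were part of the choice, and counting only the 9 other members there was settled after seeing the data. Genes were named by a rule: the 10 members, the 9 other genes of the complex and its relatives, the 3 called genes with the smallest P per comparison of every other list, the 5 genes most like Pdk4 by Pearson r (mean CPM of at least 1, with a symbol; 1 gene without a symbol was left out of these after the list had been seen) and the most abundant gene of each marker list; Mpc1-ps, Map3k15, 4930506C21Rik, Umod in the Ctrl mice, Slc5a12, the other called genes of pyruvate routes and Foxo3 in YHY against Model were added after their values were seen. Alternatives were DESeq2 1.42.0, upper-quartile scaling, library size alone, TMM without mitochondrial transcripts, other count filters, the mice of a comparison alone, 9 mice (without Ctrl 2, Model 1 and YHY 4, the set that earlier work on these files had linked to the deposited group means), a replicate block, each mouse left out, the study's own limits, and Mpc1 summed with Mpc1-ps. A check of level order on RefSeq coding lengths was not run. The deposited tables of the authors' own comparisons, with fold changes, P values, pathway terms and 12 columns of values per mouse, were not used. The motifs shown were settled after matches had been seen, and 2 others were looked for in the Pdk4 window without a match. Promoters come from RefSeq, GRCm38.p6, and gene positions are as deposited.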

Additional observations from a re-analysis of the deposited data

Results flagged for a closer look

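In 207 sets of 4 mice tested, 11 (5.31%) held a mouse set apart from the other 3 by Dixon's 95% criterion, and chance gives about 1 in 20. The summed level of Mpc1 and Mpc1-ps in Model mice was 31.2 CPM in Model 1 and 23.5 to 24.7 CPM in the others. Kinase transcripts per Pdha1 transcript were 2.45 in Ctrl 2 and 1.45 to 1.50 in the other Ctrl mice. Ctrl 2 also had the highest mitochondrial share of its group, 22.7% against 18.4 to 18.6%, and the lowest total, 29633000 counts when rounded, against 32678000 to 33277000. The mitochondrial share was 64.6% in YHY 2 and 53.8 to 54.6% in the other YHY mice. Dlat stood at 55.3 CPM in YHY 3 and at 43.4 to 44.1 CPM in the other YHY mice. Bckdk stood at 50.9 CPM in Model 3 and at 60.1 to 61.7 CPM in the other Model mice. Suclg1 stood at 116 CPM in Model 1 and at 61.1 to 69.9 CPM in the rest of that group. Sesn1 stood at 11.7 CPM in Ctrl 4 against 9.42 to 9.67 CPM, and Lcn2 at 21.1 CPM in Ctrl 4 against 2.28 to 5.06 CPM. Pdpr stood at 4.19 CPM in YHY 1 against 5.03 to 5.14 CPM. None of the 10 members taken alone was set apart in this way in any group.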

How the results depend on the processing

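The counts of members called, without Pdk4 (6 to 8 in Model against Ctrl, 6 or 7 between YHY and Ctrl mice) stayed within 1.5 times of 7 under all alternatives. In YHY against Model the count of 2 of 9 became 1 with library size alone, with the 8 mice of the comparison alone and with 9 mice (Pdp2, without Pdk3 each time), and 4 by the study's limits; with 1 mouse left out it lay between 0 and 2, and it was 0 without Model 3. The number of members with an exact permutation P under 0.05 in that comparison went from 2 to 1 with upper-quartile scaling and with library size alone. All genes called in YHY against Model went from 2311 to 1178 with library size alone, 1385 with 8 mice and 1146 without Model 3. As untested values, Pdk4 ran from -1.01 (library size alone) to -0.34 in Model against Ctrl, from 2.31 to 2.78 in YHY against Model and from 1.59 to 2.24 in YHY against Ctrl. Signs turned for values near 0 that were not called: with 9 mice Pdk1 in YHY against Model gave -0.042, with Mpc1-ps added Mpc1 in YHY against Model gave -0.11 (a choice made after seeing the data), and with library size alone Pdk2 and Pdp1 in YHY against Ctrl gave -0.17 and -0.31. With 1 mouse left out, Pdk1 ran from -0.054 to 0.0998, Pdp1 from -0.0056 to 0.418, Pdhb from -0.0017 to 0.121 and Mpc1 from -0.055 to 0.295 in YHY against Model, and Pdp1 from -0.16 to 0.27 in YHY against Ctrl. The cause of these changes was not tested. Upper-quartile scaling moved the median of all genes to 0.14 (Model against Ctrl) and 0.22 (YHY against Ctrl), and library size alone to -0.39 and -0.33, with 28.3% instead of 51.9% of calls higher in the latter.

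The replicate numbers did not pair the mice: mice with the same number had correlations from -0.173 to 0.13 between their deviations from group means, 2 of 12 over 0.1, and 3 of 12 mice matched their own number best. With the replicate number as a block the counts of members called were 7, 2 and 7, the same genes as without it, and all genes called were 6289, 1920 and 8424. A check of the level order on coding lengths was not run, since no protein table was used here. The lowest counts in a library were 73 for Pdk3, 90 for Pdk4, 96 for Mpc1 and 108 for Pdp1.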

Other observations

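The other marker lists were read for Model against Ctrl (19.6% of all genes tested higher and 18.5% lower) and for YHY against Model (5.63% and 7.62%), and the gene named as leading a list is its most abundant over all 12 mice together. The summed level of 4 thick ascending limb markers, led by Slc12a1 (by Umod in the Ctrl mice), was 1101 to 2362 CPM in Ctrl and 745 to 1159 CPM in Model mice, and 3 of 4 were lower in Model against Ctrl. Slc12a1 itself overlapped, at 435 to 973 CPM in Ctrl and 572 to 872 CPM in Model mice. The summed level of 3 distal convoluted tubule markers, led by Slc12a3, was 179 to 316 CPM in Ctrl and 428 to 498 CPM in Model mice, with 2 of 3 higher. Of 6 collecting duct markers tested, led by Aqp2, 2 were lower in Model against Ctrl, and of 5 podocyte markers, led by Podxl, 2 were higher. None of 5 endothelial markers, led by Emcn, was called in that comparison, 2 of 6 mesenchymal markers, led by Acta2, were higher, and of 6 myeloid markers, led by Csf1r, 1 was higher and 2 lower. Of 3 lymphocyte markers tested, led by Jchain, 1 was lower, and of 5 erythroid markers, led by Hba-a1, 1 was higher and 3 lower. Of 4 adrenal cortex markers only Star was tested, and it was higher, at 1.27 to 2.00 CPM in Ctrl and 3.09 to 5.66 CPM in Model mice. In YHY against Model, 2 of 5 erythroid markers, 1 of 6 mesenchymal and 1 of 3 lymphocyte markers were higher, 1 of 3 distal convoluted tubule and 1 of 6 collecting duct markers were lower, and none of the thick ascending limb, podocyte, endothelial or myeloid markers was called.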
